A study of Mus musculus with 6 samples.

Results

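Polycomb repressive complex genes encode the proteins that keep developmental genes silent in dividing cells. Described here are 9 of them, taken by gene symbol from the deposited expression table: the PRC1 genes Cbx2, Cbx7, Cbx8, Bmi1 and Rnf2 and the PRC2 genes Ezh1, Ezh2, Eed and Suz12. They are 9 of the 55471 gene IDs in the table, and all 9 were among the 13348 genes abundant enough to test. The cells came from L28BME mice, whose labelled genotype is LIN28B*MLL-ENL, and from ME mice, labelled MLL-ENL alone, with 3 libraries for each group. MLL-ENL is a leukaemia fusion of a chromatin regulator with a transcription elongation factor, and LIN28B is an RNA-binding protein of fetal blood progenitors. In both groups GMLPs, progenitors of granulocytes, monocytes and lymphocytes, were sorted from bone marrow as lineage-negative, Kit+, Sca1+, CD48+ and CD150- cells and then kept in culture with doxycycline (DOX) for 3 days. The labels give no age, sex, strain or driving promoter for either group, no group without MLL-ENL or without DOX was analysed here, and nothing says whether the replicates came from separate animals or cultures. P-values therefore measure only the spread between these libraries, which may be technical.

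Polycomb proteins work in a pair of complexes. PRC2 methylates lysine 27 of histone H3, with EZH1 or EZH2 as the catalytic subunit and EED and SUZ12 as the core partners without which it is not active. Canonical PRC1 binds that mark through a chromobox (CBX) subunit and ubiquitinates histone H2A through the RING proteins RNF2 (RING1B) or RING1, paired with a PCGF protein such as BMI1. In blood, BMI1 is known for sustaining stem cell self-renewal, CBX7 for favouring self-renewal over differentiation when it takes the place of other CBX subunits, and PRC2 for roles in leukaemias driven by MLL fusions. LIN28B blocks the maturation of let-7 microRNAs, which lower messenger RNAs that pair with the let-7 seed. Cbx2 is a known let-7 target. The comparison addresses how RNA levels differ between cultured MLL-ENL cells with and without the LIN28B genotype.

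Levels are given as TPM, a length-scaled transcript abundance whose total is nearly the same in every library, so the number of reads behind a value is unknown and no interval for counting error is printed. Between 13215 and 13288 genes reached 1 TPM per library. Lin28b was at 11.2, 11.7 and 11.9 TPM in the L28BME libraries and was listed at 0 in every ME library, as the labels say; whether these reads come from the endogenous gene or from a transgene is not given in the sources used here. Of 6 markers of the sorted cells, 5 were tested; 1 was higher, 3 were lower and Kit was not called. Kit was at 73.2 to 88.5 TPM in L28BME cells and 76.5 to 106.4 TPM in ME cells, and the lower Cd48 averaged 228.4 TPM in L28BME cells and 296.8 TPM in ME cells. Ly6a, which encodes Sca1 and was lower too, averaged 2.07 TPM in L28BME cells and 10.6 TPM in ME cells, and Slamf1, which encodes CD150, stayed under 1 TPM in all 6 libraries. Cd34, the third lower gene, averaged 440.2 TPM in L28BME cells and 505.9 TPM in ME cells. Flt3, a receptor of lymphoid-primed progenitors, was higher, at 186.9 ± 2.10 TPM in L28BME cells and 96.6 ± 3.96 TPM in ME cells (SD, n = 3 each; log2 fold change 0.95, limma adjusted p = 1.60e-04). The RNA was taken after the culture, when the Sca1 message differed between the groups (Ly6a, log2 fold change -1.96, limma adjusted p = 0.00376). Over all genes tested, 36.7% did not overlap between the groups and 14.9% were called. Summed markers of other blood cells did not overlap between the groups for any of 7 lists. They were higher in L28BME libraries for B-lymphoid genes (68.9 to 71.2 TPM in L28BME, 33.9 to 35.6 TPM in ME, 3 of 5 tested genes called higher), mature neutrophils (68.0 to 74.7 TPM in L28BME, 37.7 to 39.3 TPM in ME, 3 of 5) and megakaryocytes (177.6 to 193.4 TPM in L28BME, 118.0 to 122.7 TPM in ME, 5 of 7). Erythroid genes summed to 21.0 to 34.0 TPM in L28BME and 10.9 to 19.8 TPM in ME with 0 of 4 called (3 higher at an unadjusted p under 0.05). T and NK cell genes summed to at most 1.22 TPM in L28BME and 0.323 TPM in ME, with 3 of 6 at 0 throughout and 0 tested. Summed markers were lower in L28BME libraries for mast cells and basophils (317.0 to 319.3 TPM in L28BME, 395.6 to 426.9 TPM in ME, 2 of 4 called lower) and for monocytes and macrophages (84.1 to 89.0 TPM in L28BME, 97.4 to 98.4 TPM in ME). Of 3 tested genes of this last list 1 was higher and 1 lower: Csf1r averaged 26.8 TPM in L28BME cells and 22.2 TPM in ME cells, and Cd68, which makes up most of the sum, averaged 52.5 TPM in L28BME cells and 69.8 TPM in ME cells. Their part in the differences described here was not tested. In bulk RNA, fewer cells of a type and less RNA per cell cannot be told apart.

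Cbx2 was the single gene of the 9 that was called higher: its mean level in L28BME cells was 1.96 times that in ME cells. The other 8 genes did not pass the threshold, an adjusted p under 0.05 from limma over all genes tested. Cbx7 and Rnf2 were above every ME library in all 3 L28BME libraries without passing, and the core PRC2 genes Ezh2, Ezh1, Eed and Suz12 overlapped between the groups. In counts, 1 of 9 was higher and 0 were lower. At an unadjusted p under 0.05 the counts were 3 higher (Cbx2, Rnf2 and Cbx7) and 0 lower. At that unadjusted threshold 2130 of all 13348 genes tested were higher and 1824 lower, the background for every unadjusted count given here. Over all 13348 genes, 14.9% were called, 8.28% as higher and 6.60% as lower in L28BME cells, so 1 of 9 lies near the background. The groups did not overlap for 3 of 9 genes, against 36.7% of all genes tested. The median log2 fold change was 0.13 over the 9 genes, 6 of them positive, and 0.00 over all genes.

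**Figure D1:**
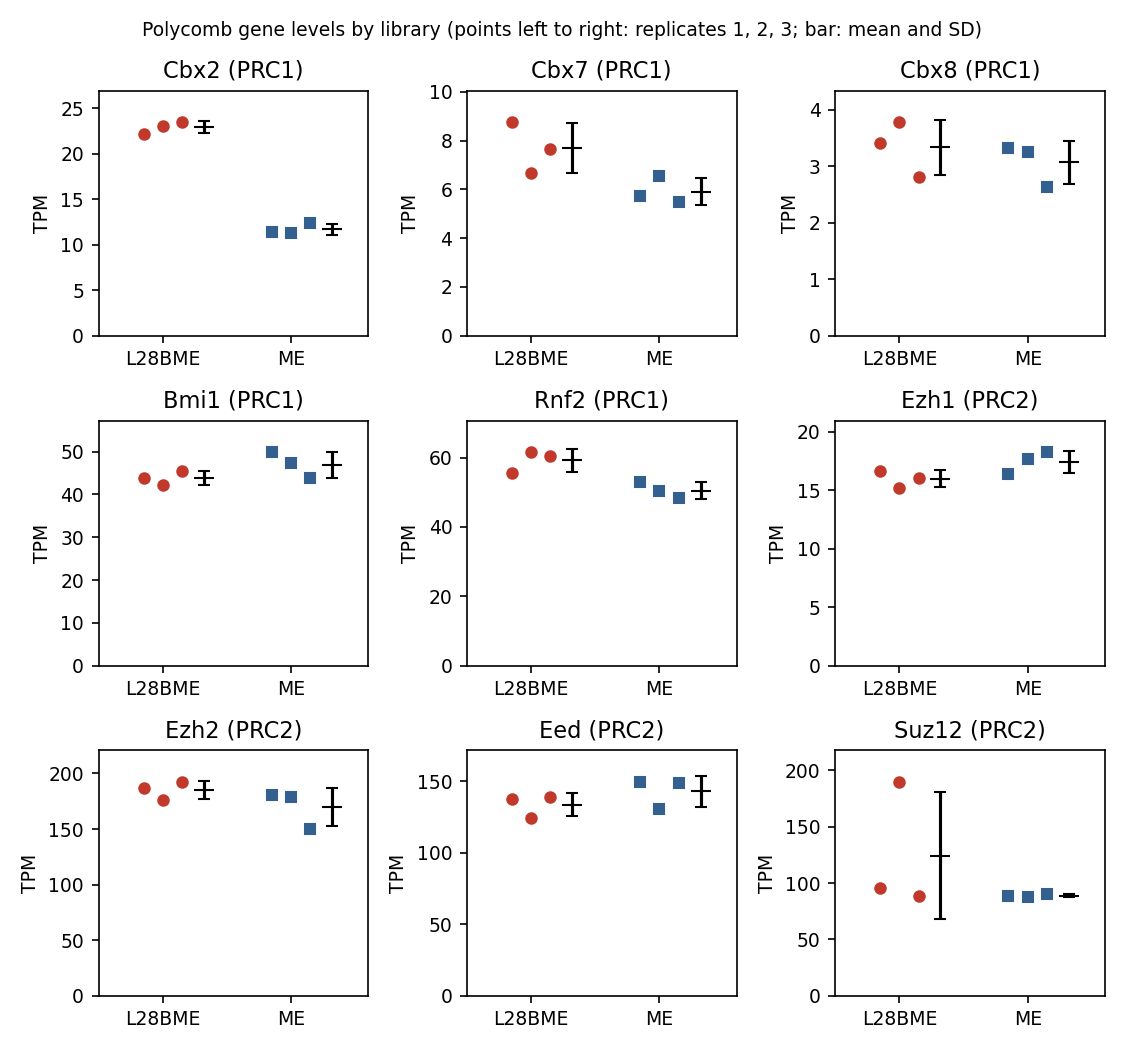
Level of each of the 9 genes (vertical axes, TPM, each from 0) in the 3 L28BME libraries (circles) and the 3 ME libraries (squares), with the mean and SD as bars. The Cbx2 points of L28BME cells (22.2 to 23.5 TPM) lie far above those of ME cells (11.3 to 12.4 TPM), and 1 Suz12 point of L28BME cells, at 189.3 TPM, stands apart from the other 5 libraries.

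Ordered by their mean over the 6 libraries, the PRC2 genes Ezh2 (177.4 TPM), Eed (138.2 TPM) and Suz12 (106.4 TPM) came first, then the PRC1 genes Rnf2 (54.8 TPM) and Bmi1 (45.3 TPM). Cbx2 (17.3 TPM) and Ezh1 (16.7 TPM) followed, and Cbx7 (6.80 TPM) and Cbx8 (3.21 TPM) were the least abundant. Neighbours in this order had separate ranges except for 3 pairs. Eed was above Suz12 in 5 of 6 libraries, and Rnf2 was above Bmi1 in 6 of 6. The order of Cbx2 and Ezh1 differed between the groups: Cbx2 was above Ezh1 in all 3 L28BME libraries and below it in all 3 ME libraries. Ezh2, Eed, Suz12, Rnf2 and Bmi1 were thus each above Cbx2, Cbx7 and Cbx8 in every library of both groups.

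The let-7 microRNAs are shown first because they are what LIN28B is known to block, beside the stretches of Polycomb 3′ UTRs that hold a match to their seed. Of 13 let-7 and miR-98 entries in RefSeq (GRCm38.p6), all but mmu-let-7j carry the same seed, GAGGUAG at bases 2 to 8. The first sequence is the mature microRNA with its seed in capitals, encoded at chr13:48538239-48538260 on the minus strand; the others are transcript strands (GRCm38) ending 1 base after the match CTACCTC, which is in capitals.
mmu-let-7a-5p: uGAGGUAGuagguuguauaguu
Cbx2, chr11:119029266-119029295, plus strand: gggaaatggcttcctgctgattCTACCTCt
Ezh2, chr6:47530527-47530540, minus strand: catctaCTACCTCt
E2f6, chr12:16826396-16826425, plus strand: cttcccaatcacctagcgctctCTACCTCa
Foxk1, chr5:142457809-142457838, plus strand: ccgttatcctctggaaaggaaaCTACCTCt
Pcgf3, chr5:108502003-108502032, plus strand: tttatgcgtaaatattacctttCTACCTCa
Pcgf3, chr5:108506735-108506764, plus strand: gaacttggagatctgcctgcctCTACCTCc
Phc3, chr3:30904006-30904035, minus strand: cctttcctgcactgagtcccatCTACCTCc
Asxl2, chr12:3497796-3497825, plus strand: cctggaatttacagagatctgcCTACCTCt
The heptamer was searched on the transcript strand of the longest annotated 3′ UTR of each gene. Of the 9 genes, 2 held it: Cbx2, 118 bases after the stop codon in a UTR of 2100 bases, and Ezh2, 7 bases after the stop codon in a UTR of 402 bases. Among tested genes with a 3′ UTR of similar length (0.8 to 1.25 times), 13.5% of 1807 held it for the length of Cbx2 and 4.1% of 976 for that of Ezh2. A match is a description of the letters and not of a site in use, and microRNAs were not measured in these libraries.

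**Figure D2:**
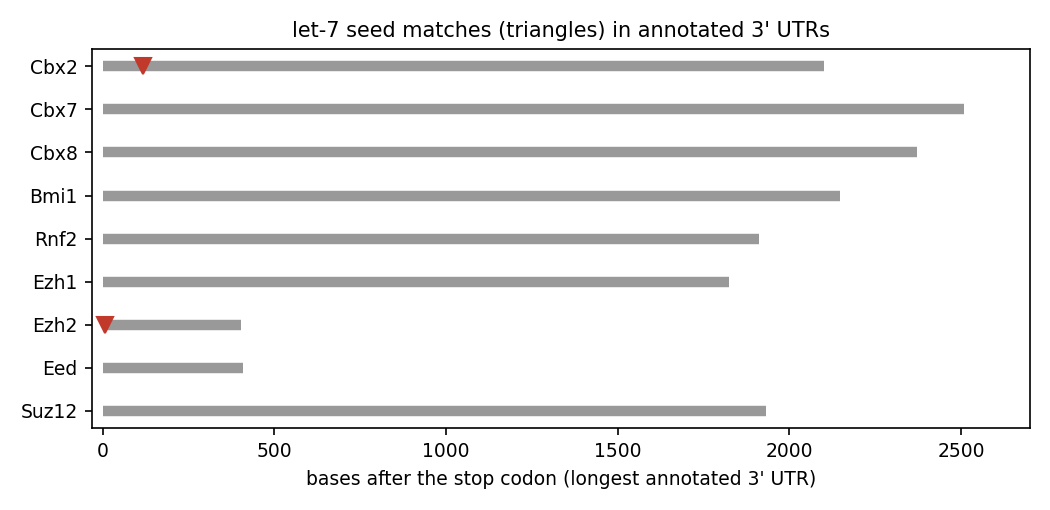
Longest annotated 3′ UTR of each of the 9 genes (grey bars, horizontal axis in bases after the stop codon), with matches to the let-7 seed as triangles. Cbx2 and Ezh2 each hold 1 match, at 118 and 7 bases, and the other 7 UTRs hold none.

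Cbx2 encodes a chromobox subunit of canonical PRC1 that can compact chromatin and is best known in mice for skeletal and gonadal development. The gene (ENSMUSG00000025577) lies at chr11:119022962-119031270 on the plus strand (GRCm38). It was at 22.2, 23.1 and 23.5 TPM in the L28BME libraries and at 11.4, 11.3 and 12.4 TPM in the ME libraries. Every L28BME library was thus above every ME library, and the gap was many times the spread within either group (22.9 ± 0.661 TPM in L28BME and 11.7 ± 0.596 TPM in ME, SD, n = 3 each). The log2 fold change of TPM + 1 was 0.92 (SE 0.061, 95% interval 0.77 to 1.06, limma adjusted p = 6.81e-04), which placed the gene at rank 93 by p of the 13348 tested. It was called in 6 of 6 fits that left out 1 library. Among all tested genes with an annotated 3′ UTR, 205 of the 1147 with a let-7 match (17.9%) were higher in L28BME cells. Of the 9735 without a match, 837 (8.60%) were higher, and 62 with a match and 732 without were lower. Longer UTRs hold a match more often, and these 2 sets were not matched for UTR length. Whether let-7 had a part in the higher level of Cbx2 was not tested.

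The other chromobox genes did not pass the test. Cbx7 (ENSMUSG00000053411, chr15:79915807-79971119, minus strand), whose protein reads H3K27 methylation in stem cells, was at 8.75, 6.68 and 7.66 TPM in L28BME cells and at 5.71, 6.54 and 5.47 TPM in ME cells. The groups did not overlap, but the nearest libraries were 6.68 and 6.54 TPM, and the log2 fold change of 0.33 (SE 0.117, 95% interval 0.04 to 0.61) had a limma adjusted p of 0.122. Exons of Cbx7 overlap exons of Apobec3 on the opposite strand, which averaged 123.4 TPM; whether strand was used in quantification is not given in the sources used here, so the level of Cbx7 is uncertain. Cbx8 (ENSMUSG00000025578, chr11:119036305-119040969, minus strand), a subunit studied as a partner of MLL fusions in mouse leukaemia, was at 3.42, 3.78 and 2.82 TPM in L28BME cells and at 3.33, 3.26 and 2.64 TPM in ME cells. The groups overlapped, with a log2 fold change of 0.09 (95% interval -0.22 to 0.40, limma adjusted p = 0.695).

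Cbx2 and Cbx8 are neighbours on chromosome 11, with 5034 bases between them, and had log2 fold changes of 0.92 and 0.09. The chromobox proteins compete for the same place in canonical PRC1, so the level of Cbx2 was set against those of Cbx8 and Cbx7 in each library. The ratio of Cbx2 to Cbx8 was 6.50, 6.12 and 8.32 in the L28BME libraries and 3.44, 3.46 and 4.69 in the ME libraries. The ratio of Cbx2 to Cbx7 was 2.54, 3.46 and 3.06 in the L28BME libraries and 2.001, 1.72 and 2.26 in the ME libraries. Every L28BME library was above every ME library for both ratios, which are given as a description, with no test. The ratios largely restate the difference in Cbx2, since Cbx8 and Cbx7 were not called, and are no separate evidence. The level of Cbx7 is uncertain, as stated above. Cbx6, which encodes a further chromobox subunit, was at 20.1, 23.6 and 25.3 TPM in L28BME cells and at 22.8, 30.9 and 16.3 TPM in ME cells, so its groups overlapped and its ME libraries varied widely.

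Rnf2 and Bmi1 form the catalytic pair of canonical PRC1. Rnf2 (ENSMUSG00000026484, chr1:151458004-151500955, minus strand), the H2A ubiquitin ligase, was at 55.5, 61.5 and 60.5 TPM in the L28BME libraries and at 52.9, 50.3 and 48.3 TPM in the ME libraries. All L28BME libraries lay above all ME libraries, but the difference was small: the log2 fold change was 0.22 (SE 0.058, 95% interval 0.08 to 0.36) with a limma adjusted p of 0.0522. It passed, with a limma adjusted p of 0.0478, only when genes under 5 TPM were left out. In the other 14 of 15 alternatives Rnf2 was not called, with limma adjusted p-values of up to 0.140. Its exons overlap those of Trmt1l on the opposite strand, which averaged 41.1 TPM. Of the summed TPM of Rnf2 and its paralog Ring1, Rnf2 made up 79.0 ± 0.346% in L28BME cells and 76.3 ± 1.82% in ME cells (SD, n = 3 each), with Ring1 at 15.8 ± 1.04 TPM in L28BME and 15.6 ± 0.879 TPM in ME.

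Bmi1 (ENSMUSG00000026739, chr2:18677018-18686629, plus strand), the PCGF subunit needed for lasting blood stem cell function, was at 43.8, 42.1 and 45.3 TPM in the L28BME libraries and at 49.8, 47.3 and 43.7 TPM in the ME libraries. The groups overlapped, with a log2 fold change of -0.10 (95% interval -0.25 to 0.05, limma adjusted p = 0.339). That interval leaves room for a fall to about the size of the difference seen for Rnf2 but not for one like that of Cbx2. Its paralog Pcgf2 (MEL18), which can fill the same place, averaged 21.7 ± 1.03 TPM in L28BME cells and 19.5 ± 1.90 TPM in ME cells. Bmi1 made up 66.9 ± 1.81% of the sum of this pair in L28BME cells and 70.6 ± 1.69% in ME cells (SD, n = 3 each), without overlap between the groups. The two-sided exact permutation p was 0.1, the smallest that 3 against 3 libraries allow (0.233 after Benjamini-Hochberg adjustment over the 7 shares and ratios tested, of which 5 are not reported here).

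No core gene of PRC2 passed the test, and the libraries of the groups overlapped for all 4. Ezh2 (ENSMUSG00000029687, chr6:47530139-47595341, minus strand), the main H3K27 methyltransferase of dividing cells, was at 186.8, 176.2 and 191.9 TPM in the L28BME libraries and at 180.4, 179.0 and 150.3 TPM in the ME libraries. The third ME library was the lowest and the other 5 overlapped. The log2 fold change was 0.13 (SE 0.079, 95% interval -0.07 to 0.32, limma adjusted p = 0.348). Ezh2 and Cbx2 each hold a let-7 seed match, which is not shown to be a site in use. Whether Ezh2 and Cbx2 differ in their response was not tested; their 95% intervals, -0.07 to 0.32 for Ezh2 and 0.77 to 1.06 for Cbx2, do not overlap.

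Ezh1 (ENSMUSG00000006920, chr11:101191115-101226463, minus strand), the paralog that predominates in resting cells, was at 16.6, 15.2 and 16.1 TPM in the L28BME libraries and at 16.4, 17.7 and 18.2 TPM in the ME libraries. Its log2 fold change was -0.12 (95% interval -0.28 to 0.04, limma adjusted p = 0.295). The ratio of Ezh2 to Ezh1 was 11.24, 11.61 and 11.96 in L28BME cells and 11.03, 10.13 and 8.25 in ME cells. The groups did not overlap, but the nearest libraries were close, at 11.24 and 11.03, and the difference in the log2 ratio of 0.25 had an exact permutation p of 0.1 (adjusted 0.233). Summed proliferation markers overlapped between the groups, with 4209 to 4260 TPM in L28BME libraries and 4189 to 4231 TPM in ME libraries. Of 18 such genes, 2 (Top2a and Aurka) were higher and 0 lower (11.1% called against 14.9% of all genes). At an unadjusted p under 0.05, 3 were higher and 1 was lower.

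Eed (ENSMUSG00000030619, chr7:89954654-89980983, minus strand), the subunit that binds methylated H3K27 and activates the enzyme, was at 137.5, 124.2 and 138.8 TPM in the L28BME libraries and at 149.1, 130.4 and 149.0 TPM in the ME libraries. The second library of each group was its lowest, and the groups overlapped (log2 fold change -0.10, 95% interval -0.27 to 0.08, limma adjusted p = 0.428).

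Suz12 (ENSMUSG00000017548, chr11:79993106-80034123, plus strand), the scaffold of PRC2, was at 95.2, 189.3 and 88.2 TPM in the L28BME libraries and at 88.9, 87.2 and 89.9 TPM in the ME libraries. The second L28BME library alone was high, and the other 5 lay between 87.2 and 95.2 TPM. The log2 fold change was 0.39 (SE 0.283, 95% interval -0.30 to 1.08, limma adjusted p = 0.411), and without that library it was 0.05 (adjusted p = 0.594). That library did not stand apart in general: of 10477 genes with a mean of at least 5 TPM, 8 were more than 1.8 times their level in every other library there, and 5 to 12 were so in each of the other 5 libraries. The cause of the high value was not tested.

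The remaining Polycomb machinery was described with 4 lists of 52 genes, of which 48 were tested; 7 were higher and 3 lower in L28BME cells (20.8% called against 14.9% of all genes). At an unadjusted p under 0.05 the counts were 10 higher and 8 lower, against 2130 higher and 1824 lower of all 13348 genes tested. The median log2 fold change was 0.01. Like Cbx2, Dcaf7 and E2f6 kept their call in all 6 fits that left out 1 library, and the other 8 lost theirs in at least 1 of them. In these fits the number of higher genes was 2 to 4 and that of lower genes 0 to 3.

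Among 9 tested further genes of canonical PRC1 (such as Ring1, Pcgf2, Cbx6 and the polyhomeotic and Scm genes), 0 were higher and 1 was lower. That is 11.1% called against 14.9% of all genes, with 1 higher and 1 lower at an unadjusted p under 0.05. The lower gene was Scmh1, which encodes a sterile alpha motif protein that binds PRC1. It was at 16.1, 15.3 and 18.7 TPM in L28BME cells and at 32.2, 24.8 and 23.9 TPM in ME cells, and every L28BME library was below every ME library (log2 fold change -0.65, SE 0.132, limma adjusted p = 0.0253). Leaving out 1 library moved its adjusted p between 0.0396 and 0.0807.

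Variant PRC1 complexes lack a chromobox subunit and contain RYBP or YAF2 with PCGF1, PCGF3, PCGF5 or PCGF6. Of 18 tested genes, 4 were higher and 2 lower (33.3% called against 14.9% of all genes), and 4 were higher and 4 lower at an unadjusted p under 0.05. The median log2 fold change was -0.07. E2f6, a repressor of the PCGF6 complex, averaged 47.1 ± 2.11 TPM in L28BME cells and 36.0 ± 2.19 TPM in ME cells (log2 fold change 0.38, limma adjusted p = 0.0119). Dcaf7, an adaptor of the PCGF3 and PCGF5 complexes, averaged 96.8 ± 2.20 TPM in L28BME cells and 77.7 ± 1.11 TPM in ME cells (0.31, adjusted p = 0.00327). Rybp averaged 17.8 ± 0.863 TPM in L28BME cells and 14.7 ± 0.298 TPM in ME cells (0.26, adjusted p = 0.0364), and Pcgf3 averaged 23.5 ± 0.856 TPM in L28BME cells and 19.95 ± 0.695 TPM in ME cells (0.23, adjusted p = 0.0424). The lower genes were Pcgf1, of the complex with BCOR and KDM2B, at 14.5 ± 1.49 TPM in L28BME cells and 18.8 ± 0.934 TPM in ME cells (-0.36, adjusted p = 0.0422), and Wdr5, which also serves in MLL methyltransferase complexes, at 153.8 ± 3.24 TPM in L28BME cells and 173.0 ± 1.32 TPM in ME cells (-0.17, adjusted p = 0.0163). The groups of each of these 6 genes did not overlap, and n was 3 in each group. The calls of Rybp and Pcgf3 were lost whenever 1 library was left out, with adjusted p-values of 0.0556 to 0.110 for Rybp and 0.0779 to 0.121 for Pcgf3. Those of Wdr5 (0.0421 to 0.0621) and Pcgf1 (0.0275 to 0.122) were lost without some libraries.

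Of 9 tested accessory genes of PRC2, 2 were higher and 0 lower (22.2% called against 14.9% of all genes). At an unadjusted p under 0.05, 2 were higher and 1 was lower. Jarid2, which helps to recruit PRC2, was at 32.3, 30.01 and 31.3 TPM in L28BME cells and at 23.8, 21.8 and 25.2 TPM in ME cells (log2 fold change 0.39, limma adjusted p = 0.0146). Phf1, a Polycomb-like protein that binds methylated H3K36, was at 7.57, 9.82 and 7.94 TPM in L28BME cells and at 5.595, 5.88 and 5.90 TPM in ME cells (0.47, adjusted p = 0.0365). The L28BME libraries were above the ME libraries for both. Leaving out 1 library gave adjusted p-values of 0.0241 to 0.0551 for Jarid2 and 0.0546 to 0.101 for Phf1. PR-DUB, a deubiquitinase complex, and H3K27 demethylases act against the Polycomb marks. Among 12 tested genes of both, 1 was higher and 0 lower (8.33% called against 14.9% of all genes). At an unadjusted p under 0.05, 3 were higher and 2 lower. Foxk1, a forkhead protein bound by PR-DUB, averaged 27.1 ± 1.38 TPM in L28BME cells and 21.5 ± 0.381 TPM in ME cells (SD, n = 3 each; 0.32, adjusted p = 0.0156, and 0.0209 to 0.0573 without 1 library).

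Of these 48 genes, 5 held the let-7 heptamer in their 3′ UTR: E2f6, Foxk1, Pcgf3, Phc3 and Asxl2. That count lies near the background, since 10.5% of all 10882 tested genes with a 3′ UTR held it. E2f6, Foxk1 and Pcgf3 are among the 7 higher genes, where 17.9% of all tested genes with a match were higher. Of the 6 fits that left out 1 library, E2f6 was called in 6, Foxk1 in 1 and Pcgf3 in 0. Whether let-7 had a part in their levels was not tested. Phc3, a polyhomeotic gene, overlapped between the groups (8.995 ± 2.32 TPM in L28BME cells, 9.22 ± 0.537 TPM in ME cells). Asxl2, which encodes a partner of the PR-DUB deubiquitinase, was at 40.3, 37.7 and 37.5 TPM in L28BME cells and at 42.2, 45.8 and 42.5 TPM in ME cells. Every L28BME library was below every ME library, without passing the test (log2 fold change -0.17, limma adjusted p = 0.0919). Among tested genes with UTRs of similar length, a match was held by 10.6% for E2f6, 29.5% for Foxk1, 36.5% for Pcgf3, 47.3% for Phc3 and 58% for Asxl2. The UTR of Pcgf3, of 6572 bases, has 2 matches. Dcaf7, Rybp, Jarid2 and Phf1 were higher without these letters in their longest annotated 3′ UTR.

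**Figure D3:**
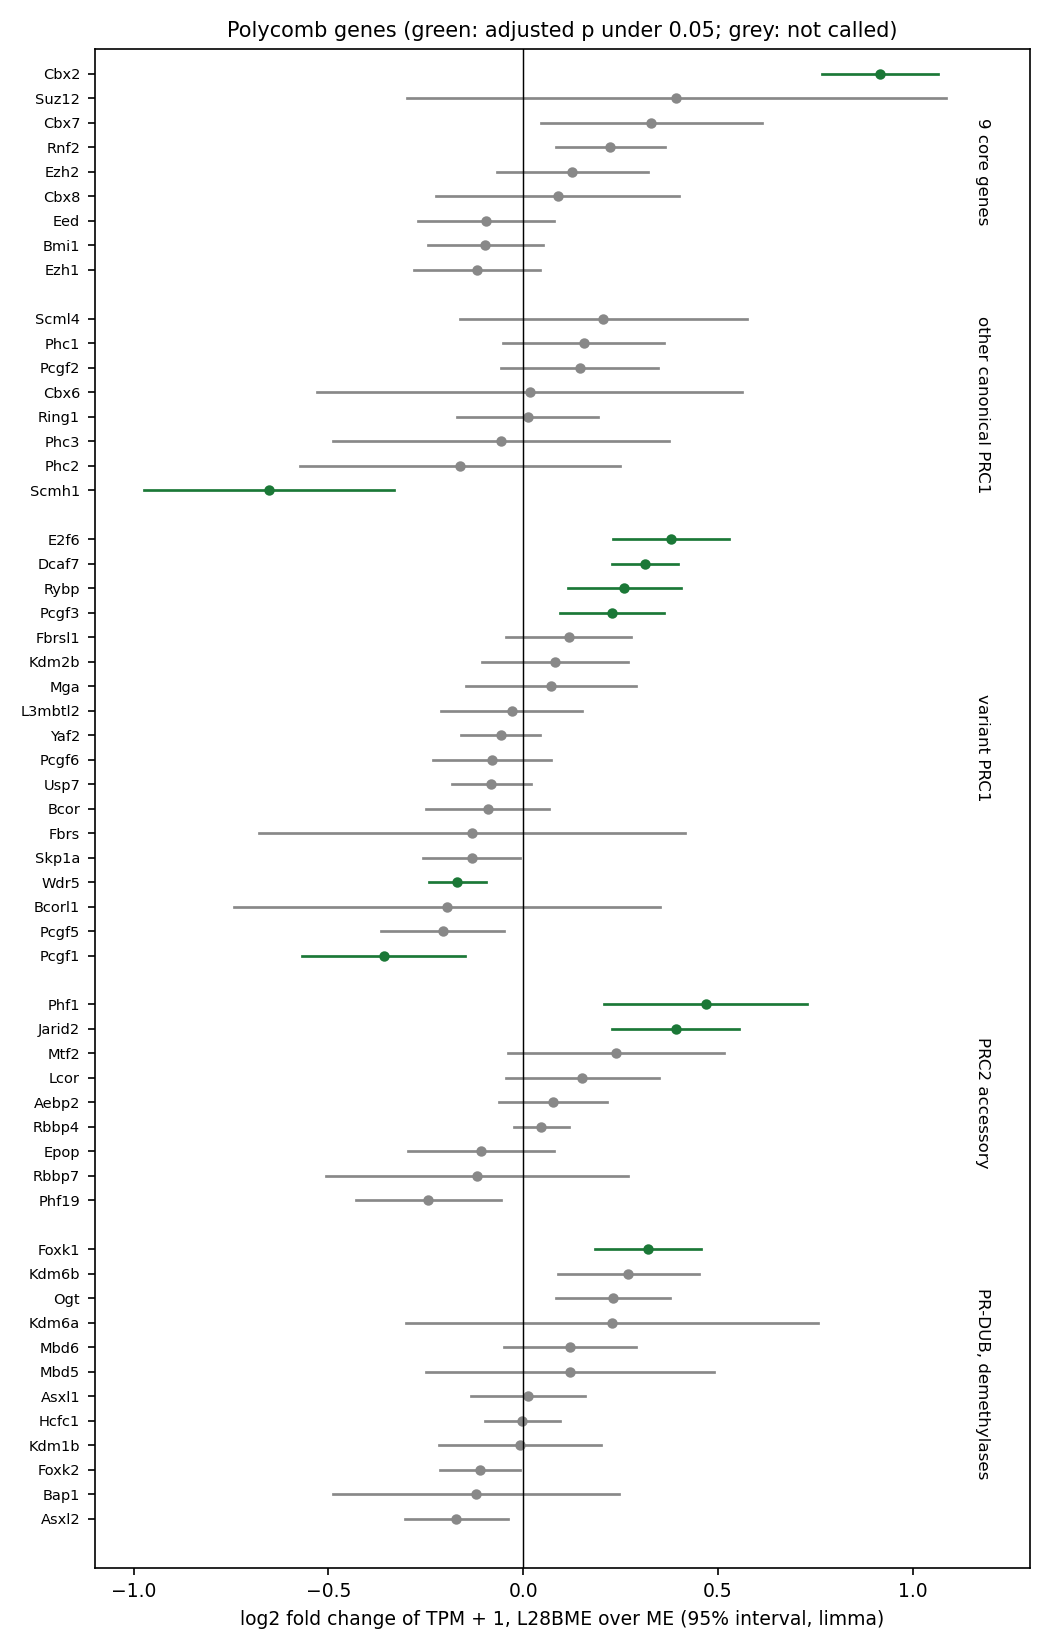
Log2 fold change of TPM + 1, L28BME over ME (horizontal axis, points with 95% intervals from limma), for the 9 genes at the top and other tested Polycomb genes by list, with called genes in green. Cbx2, at 0.92, lies furthest to the right and Scmh1, at -0.65, furthest to the left of the genes shown; the wide interval of Suz12 comes with 1 high library.

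Genes known to be silenced by Polycomb complexes were set beside the machinery. Of 28 listed, 10 reached the level for testing. They include Lin28b, whose difference follows from the genotype and is not counted here. Of the other 9, Ebf1 was higher and Hoxa7 lower, so 2 of 9 were called against 14.9% of all genes; at an unadjusted p under 0.05, 1 was higher and 2 were lower. Among the other 18, genes such as Gata4, Gata6, Hoxa11, Hoxa13, Hoxd13, Wt1 and Sox17 were listed at 0 in all 6 libraries. The cell cycle inhibitor genes of the Cdkn2 locus, classical targets of BMI1 and CBX7, stayed near 0: Cdkn2a averaged 0.134 ± 0.119 TPM in L28BME cells and 0.198 ± 0.114 TPM in ME cells, and Cdkn2b averaged 0.482 ± 0.0487 TPM in L28BME cells and 0.458 ± 0.0465 TPM in ME cells (SD, n = 3 each). Ebf1, a transcription factor of early B cells, was at 2.48, 3.31 and 2.87 TPM in L28BME cells and at 1.51, 1.77 and 1.09 TPM in ME cells (log2 fold change 0.67, SE 0.149, limma adjusted p = 0.0340). The call of Ebf1 was lost in all 6 fits that left out 1 library (adjusted p = 0.0538 to 0.0976). Of 8 B-lymphoid markers, 3 of 5 tested were higher too: Cd79b averaged 56.9 TPM in L28BME cells and 27.2 TPM in ME cells, Rag1 averaged 4.05 TPM in L28BME cells and 1.295 TPM in ME cells, and Rag2 averaged 5.73 TPM in L28BME cells and 2.03 TPM in ME cells. The other 2 tested markers were not called and had slightly or clearly lower means in L28BME cells. Vpreb1 averaged 2.04 TPM in L28BME cells and 2.13 TPM in ME cells, and Igll1 averaged 0.958 TPM in L28BME cells and 1.61 TPM in ME cells. Cd79b made up most of the B-lymphoid sum. The 3 untested markers were under 1 TPM in every library, and the part of B-lymphoid cells in the level of Ebf1 was not tested. Hoxa7, a target of MLL fusions that PRC2 silences in other tissues, was at 84.9, 82.2 and 76.9 TPM in L28BME cells and at 93.9, 92.4 and 97.0 TPM in ME cells (-0.21, SE 0.048, adjusted p = 0.0336, and 0.0476 to 0.103 without 1 library). Its neighbour Hoxa9 overlapped between the groups, with 108.6 ± 11.6 TPM in L28BME cells and 101.1 ± 11.4 TPM in ME cells (SD, n = 3 each).

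The genes whose log2 levels followed Cbx2 most closely over the 6 libraries were Tyrobp, Mxi1, Fzd9, Camk1d and Epx, with Pearson correlations of 0.9985 to 0.9993. The libraries form 2 groups, so such values mostly reflect a gap between groups with little spread within them. Tyrobp, a signalling adaptor of myeloid and NK cell receptors, averaged 705.3 ± 9.79 TPM in L28BME cells and 501.9 ± 8.41 TPM in ME cells. Fzd9, a Wnt receptor, averaged 6.52 ± 0.382 TPM in L28BME cells and 1.74 ± 0.106 TPM in ME cells. Mxi1, a MYC antagonist, averaged 37.5 ± 0.399 TPM in L28BME cells and 28.6 ± 0.698 TPM in ME cells (SD, n = 3 each).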

How the data were processed

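RNA of 3 L28BME and 3 ME libraries, made with a stranded messenger RNA kit, was sequenced. Bcl2fastq, HISAT2, StringTie and DESeq2, with GRCm38, are named per the submitters' processing notes. Their versions, and whether strand was used, are not stated there or in the labels. The authors deposited TPM per gene and library, which are relative abundances: a change in abundant genes shifts the others. The deposited table also holds the percent GC of each gene, which was not used. Of 23940 gene IDs with a TPM above 0, 23898 matched GENCODE mouse release 21, which gave positions and 3′ UTRs.

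Values were analysed as log2(TPM + 1), so fold changes of low genes are understated. Genes with at least 1 TPM in at least 3 of 6 libraries were tested by limma 3.58.1 under R 4.3.3 (intensity trend, two-sided, Benjamini-Hochberg over 13348 genes). Shares and ratios of levels were compared by two-sided exact permutation tests (Python 3.11.15, scipy 1.17.1). Some planned shares of chromobox genes and some list members are not reported here. The procedure was tested on simulated data. The members and gene lists were chosen with earlier results of these data known. Named genes were the 9 members, in each other Polycomb list up to 6 called genes by p, Lin28b, and the 5 genes most correlated with Cbx2; other genes were chosen after their values were seen. Alternatives were other pseudocounts, filters and scalings, limma without its trend, summing of genes that overlap on the same strand, a term for replicate number, and leaving out each library. The summing does not address the opposite-strand overlaps of Cbx7 and Rnf2, whose fold changes it left the same.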

Additional observations from a re-analysis of the deposited data

How the results depend on the processing

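Cbx2 kept its call in all 15 alternatives, with log2 fold changes of 0.89 to 0.97 and adjusted p-values of 6.08e-04 to 0.0167. Over 27 named genes and these alternatives, 64 comparisons lost a call, 1 gained it and 0 reversed; 46 of the 64 came from leaving out a library. With a minimum of 5 TPM, 2 of the 9 genes were higher (Cbx2 and Rnf2). Rnf2 was not called in the other 14 alternatives. Leaving out 1 library gave 617 to 693 higher and 461 to 582 lower genes in all, against 1105 and 881, and among other Polycomb genes 2 to 4 higher and 0 to 3 lower. Without a filter on low values 4 other Polycomb genes were higher. The labels do not say whether equal replicate numbers mark pairs. Deviations from the group means correlated at -0.03 to -0.07 between same-numbered libraries, which cannot settle it with 3 libraries in each group. With the replicate block, 1 of the 9 genes (Cbx2) was called, 548 genes were higher and 400 lower in all, and 3 other Polycomb genes were higher and 0 lower. Leaving out 1 library gave L28BME minus ME differences of -4.71 to -2.73 points for the share of Bmi1 and 0.13 to 0.34 for the log2 ratio of Ezh2 to Ezh1. The cause was not tested; fits without a library also have fewer samples. Depth is unknown, and Cbx8 and Cbx7, at under 9 TPM, rest on the lowest levels of the 9 genes.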
